A study of Mus musculus with 16 samples.

Results

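Plasmacytoid dendritic cells (PDC) of mouse bone marrow were set against the common dendritic cell progenitors (CDP) of the same tissue, from which dendritic cells are known to arise. The members are the 2 PDC arrays and the 2 CDP arrays, chosen by their sample titles, which makes 4 of the 16 microRNA (miRNA) arrays of the study. PDC were sorted as B220+, SiglecH+ and CD317+ cells with intermediate CD11c, and each of their replicates was RNA from a pool of 5 mice. CDP were sorted as CD135+, CD115+ cells with low CD117 that lacked the lineage markers B220, CD3, CD4, CD8α, CD11b, CD11c, Gr1, NK1.1, Sca-1 and Ter-119, and each of their replicates was RNA from a pool of 15 mice. All mice were untreated C57Bl/6 females aged 6 weeks, marrow came from femur and tibia, and the cells were sorted without culture. PDC had been enriched on Ficoll and CDP by magnetic beads for CD135, so enrichment, pool size and population cannot be told apart. Used beside them are Gr1+ monocytes of bone marrow (CD11b+, CD115+, Gr1+, pools of 5 mice) and the CD8+, CD4+ and CD4-CD8- dendritic cells (DC) of spleen (pools of 8 mice), with 2 arrays each. Arrays of replicate 1 were all of 1 array design and those of replicate 2 of another, and both designs hold miRNAs only, so the sort markers could not be checked.

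PDC are the cells that release large amounts of type I interferon when their endosomal Toll-like receptors meet viral nucleic acid. They share surface and transcriptional features with B cells although they descend in part from the same progenitors as conventional dendritic cells, and CDP are proliferating cells that can give rise to both. A miRNA is a short RNA that lowers the output of messenger RNAs that pair with its seed, the bases 2 to 8 from its 5' end. Related miRNAs can share a seed, and neighbouring miRNAs can be cut from a common primary transcript.

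The mature sequences of the miRNAs with the largest differences come first, written 5' to 3' with the seed in capitals. They were taken from RefSeq (GRCm38.p6), where 152 of the 175 tested miRNAs were matched through the probe sequences of the arrays. miR-362-3p, miR-500, miR-128, miR-592, miR-146a and miR-22 are shown because they were among the 10 with the largest rise in PDC, and miR-18a and miR-223 because they had the largest falls.
miR-362-3p: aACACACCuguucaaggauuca
miR-500: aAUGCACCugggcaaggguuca
miR-128: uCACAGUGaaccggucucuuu
miR-592: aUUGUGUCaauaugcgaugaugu
miR-146a: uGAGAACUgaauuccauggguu
miR-22: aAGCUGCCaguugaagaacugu
miR-18a: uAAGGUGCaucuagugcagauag
miR-223: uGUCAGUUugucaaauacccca

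Further sets are shown because relatives with a shared seed moved together or apart. The miR-29 sequences moved together, and so did most sequences with the seed of miR-17.
miR-29a: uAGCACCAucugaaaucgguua
miR-29b: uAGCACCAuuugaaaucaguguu
miR-29c: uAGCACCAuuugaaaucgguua
miR-17: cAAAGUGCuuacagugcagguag
miR-20a: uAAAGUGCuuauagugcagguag
miR-20b: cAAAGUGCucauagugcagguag
miR-93: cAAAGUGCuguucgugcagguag
miR-106b: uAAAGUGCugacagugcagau
The miR-181, miR-146, miR-500 and miR-15 relatives came apart in the comparison of PDC with CDP. miR-181a and miR-181c differ from each other by 1 base, miR-181b and miR-181d by 2, and miR-181a and miR-181b by 4, where a missing base counts as a difference. miR-146a and miR-146b differ by 2 bases, miR-500 and miR-501-3p by 4, miR-15a and miR-322 by 7, and miR-16 and miR-322 by 9.
miR-181a: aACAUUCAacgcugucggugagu
miR-181c: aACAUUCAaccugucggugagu
miR-181b: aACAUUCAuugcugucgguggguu
miR-181d: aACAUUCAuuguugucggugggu
miR-146b: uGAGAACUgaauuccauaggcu
miR-501-3p: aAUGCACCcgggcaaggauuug
miR-15a: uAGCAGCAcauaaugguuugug
miR-16: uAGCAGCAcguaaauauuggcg
miR-322: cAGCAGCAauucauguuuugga
Where relatives differ by few bases, a probe can also bind the relative, and its part in the values was not tested.

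Levels are given as log2 of the background-subtracted signal divided by the 75th percentile of that array, so 0 is the level of that percentile and a difference of 1 is a doubling. That percentile was taken over 88 miRNAs with detection on all 16 arrays. Both designs carried 604 mouse miRNAs, of which 175 were tested because some population had them detected on each of its arrays. Between 16.7 and 25.4 percent of the spots of an array were well above background, and no spot was saturated. The PDC arrays detected 129 and 171 miRNAs and the CDP arrays 128 and 138, in the order of replicates 1 and 2. Values under a floor of -5.30 on the first design and -5.78 on the second were raised to it. Precision is limited by the number of arrays, and in bulk RNA fewer cells with a miRNA and less of it per cell cannot be told apart.

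In all, 66 of the 175 tested miRNAs (37.7 percent) differed between PDC and CDP at an adjusted p under 0.05, 45 of them higher (25.7 percent) and 21 lower (12 percent) in PDC. Every one of the 66 had the same sign in both replicates, which such a call favours, and 54 of them were detected on all 4 arrays. Among the calls, 27 were higher by more than 1 on the log2 scale and 13 of these by more than 2, whereas 13 were lower by more than 1 and 2 of these by more than 2. The median over all tested miRNAs was 0.00. The difference of replicate 1 and that of replicate 2 had a Pearson correlation of 0.875 across the 175 miRNAs, which are not independent and share the 4 arrays. Detection itself was unequal, since 13 of the 175 miRNAs were detected on both PDC arrays and on no CDP array, and 1 was so in CDP alone. A miRNA was tested where some population detected it on each of its arrays. Among the 13, miR-592, miR-501-3p and miR-362-5p entered the 175 through PDC alone, so these counts are given as a description. Detection was set before scaling. On replicate 2, 25.3 percent of spots were well above background for PDC and 20.4 percent for CDP, against 16.8 and 17.0 percent on replicate 1.

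**Figure D1:**
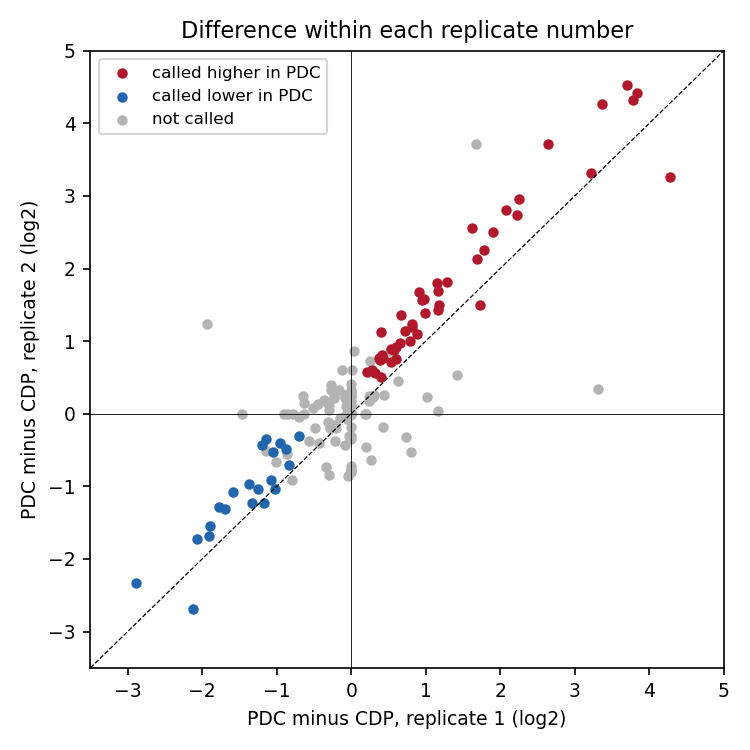
PDC minus CDP (log2) within replicate 1 on the x axis and within replicate 2 on the y axis, with 1 point for each of the 175 tested miRNAs and the line of equal values dashed. The 45 miRNAs called higher lie in the upper right and the 21 called lower in the lower left, so all 66 have 1 sign in both replicates.

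The scaling of the arrays moved most differences, though not values at the floor. Scaling to the 75th percentile over all miRNAs, to the median of the detected ones, or by quantiles shifted the scale between PDC and CDP by -0.52, -0.34 and -0.30. The median over all tested miRNAs became -0.24, -0.09 and -0.03, and the calls became 26 higher and 39 lower, 33 higher and 27 lower, and 35 higher and 31 lower. All 21 calls of lower levels were kept under each of these scalings, while 26, 33 and 35 of the 45 calls of higher levels were kept. After normexp background correction, another way to remove local background, 31 miRNAs were called. Of the 51 called miRNAs named in the text, 23 were then not called, all in the same direction as before, among them miR-592, miR-151-5p, miR-532-3p, miR-362-5p, miR-29c, miR-181c, miR-17, miR-99a, miR-322, miR-195, both arms of miR-142 and both miR-148 members. When the 4 PDC and CDP arrays were fitted alone, limma called 0 miRNAs, and 53 had an unadjusted p under 0.05.

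**Figure D2:**
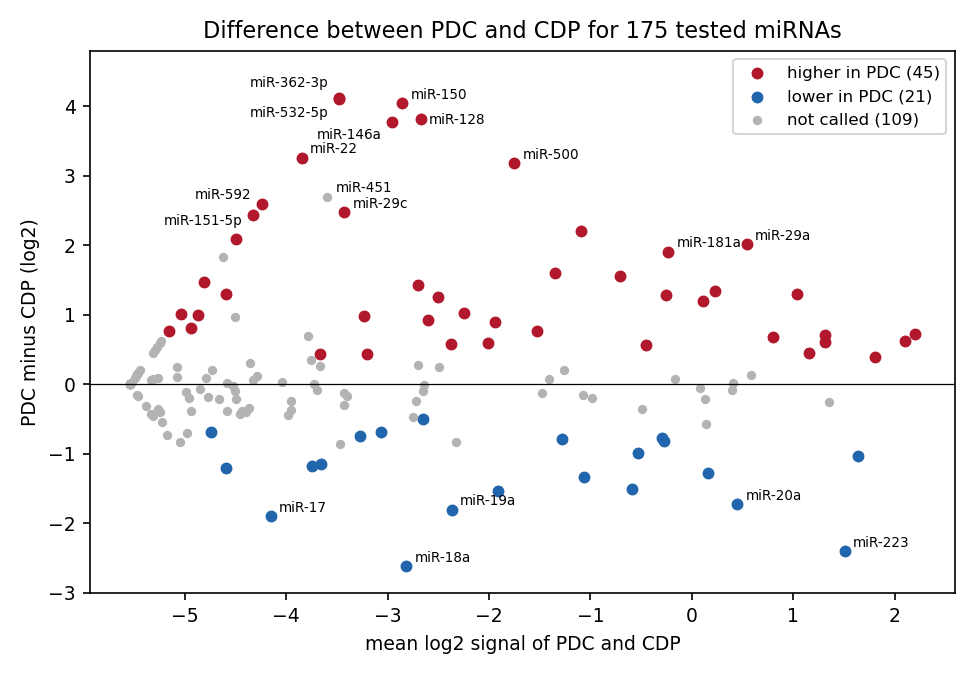
Mean log2 signal of PDC and CDP on the x axis against PDC minus CDP (log2) on the y axis for the 175 tested miRNAs, red where called higher in PDC, blue where called lower and grey where not called. The largest rises, up to 4.13, lie at low and middle mean levels, and the falls reach -2.61. miR-451, with a difference of 2.70, was not called.

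miRNAs known from other cells were looked at as a check of the sorts. Of the erythroid set of 3 miRNAs on both designs, miR-451, the miRNA of red cell precursors, was the single member detected, on each of the 4 arrays. miR-451 had log2 levels of -2.95 and -1.54 in PDC, against -4.63 and -5.26 in CDP, a difference of 2.70 ± 1.08 (SE) that was not called (adjusted p = 0.0902). Without PDC replicate 1 the difference of miR-451 was 3.92 and was called (adjusted p = 0.0482). The set summed to a scaled signal of 0.13 and 0.358 in PDC, against 0.0404 and 0.0269 in CDP, and the 2 other members were not detected. Of 16 miRNAs of stromal, muscle and epithelial cells, miR-200c alone was detected, on PDC replicate 2. miRNAs known from lymphocytes and myeloid cells, which the gates could also hold, are given further below. The part of erythroid, lymphocyte or myeloid RNA in the other differences was not tested.

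The largest fitted rises in PDC, of miR-362-3p and miR-532-5p, belonged to a group of miRNAs on the X chromosome. Both sizes rest on the floor in CDP. The bound for miR-362-3p, at least 13.7-fold, is below the 16.6-fold of miR-150 and the 14.1-fold of miR-128, so their order is not settled. Members of the group with a RefSeq sequence lie on the minus strand between 7237695 and 7248440 (GRCm38.p6), inside the span of Clcn5, a gene for a chloride channel. miR-532-5p, miR-532-3p, miR-362-3p, miR-362-5p and miR-500 were all higher in PDC, so 5 of the 7 tested members rose and none fell. Among all tested miRNAs 25.7 percent were called higher and the median difference was 0.00, against 2.09 in this group. The same 5 were called higher under each scaling, and scaled over all miRNAs miR-188-5p was called lower. Of the 7 tested, miR-362-5p and miR-501-3p passed the filter on detection through PDC alone.

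miR-362-3p had log2 levels of -1.47 and -1.36 in PDC and was detected on no CDP array, where both values stood at the floors of -5.30 and -5.78. PDC were at least 13.7-fold higher, with a fitted difference of 4.13 ± 0.28 and an adjusted p of 5.49e-06. Its partner arm miR-362-5p had -4.15 and -3.99 in PDC and was also detected on no CDP array, so that PDC were at least 2.17-fold higher. As miR-362-5p passed the filter through PDC alone, this is given as a description. Both arms thus stood apart in PDC, and miR-362-3p had its highest population mean there among all 8 populations.

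miR-532-5p reached -1.60 and -1.25 in PDC, whereas CDP stood at -5.30 and -5.78 with detection on 1 of 2 arrays. The fitted difference was 4.11 ± 0.24 (adjusted p = 5.49e-06), and its size rests on the floor, where both CDP values stood to 2 decimals. miR-532-3p had -3.67 and -3.23 in PDC and was detected on no CDP array, which gives at least 3.33-fold (adjusted p = 6.36e-05). It stood at the floor on every array outside PDC, so this p does not measure the spread on those arrays. For neither arm did the PDC and CDP values overlap.

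miR-500 was measured on all 4 arrays, with -0.28 and -0.04 in PDC, against -2.93 and -3.76 in CDP. It was 9.06-fold higher in PDC, a difference of 3.18 ± 0.41 (adjusted p = 0.000223). miR-501-3p, which has the seed of miR-500 and lies between miR-500 and miR-362-3p, was detected on the 2 PDC arrays and on none of the other 14, but at -5.30 and -5.50 it was at or near the floor. Its difference of 0.14 ± 0.09 was not called. It was 0.28 without PDC replicate 1 and 0.88 with the brightest probe. As miR-501-3p passed the filter through PDC alone, these values are given as a description. miR-188-5p of the same group had -4.30 and -4.77 in PDC, against -3.82 and -4.57 in CDP, a difference of -0.34 ± 0.37 that was not called (adjusted p = 0.611), and with the brightest probe it was 0.14. PDC had the highest population mean of the 8 for miR-500 and the lowest for miR-188-5p.

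**Figure D3:**
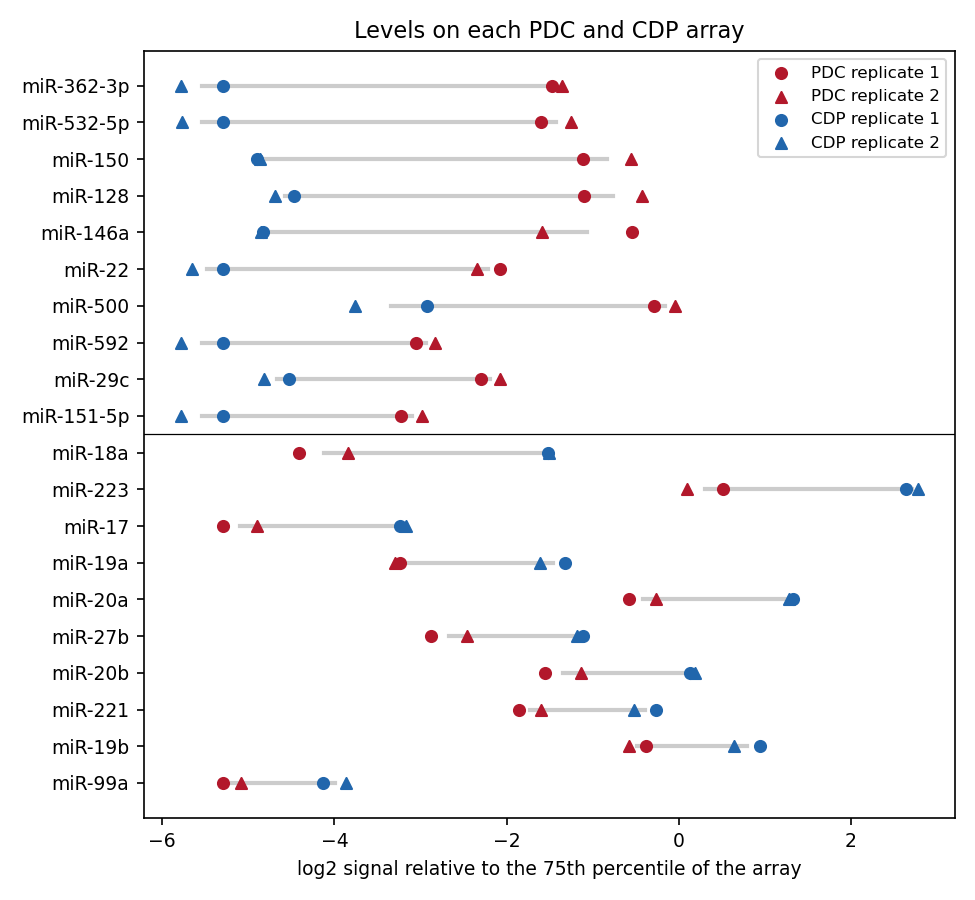
Log2 signal over the array's own 75th percentile for the 10 miRNAs with the largest rise (upper rows) and the 10 with the largest fall (lower rows) in PDC against CDP, PDC in red and CDP in blue, circles for replicate 1 and triangles for replicate 2, grey bars joining the means. Rows were chosen by a call, the same sign in both replicates and size, which favours separate values. In every row both PDC values lie on 1 side of both CDP values. The values of miR-362-3p, miR-592 and miR-151-5p in CDP are the floors of the designs.

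miR-128 and miR-592, both best known from neurons, were also higher in PDC. miR-128 is encoded within R3hdm1 on chromosome 1 (128202404-128202424) and within Arpp21 on chromosome 9 (112118644-112118664). Its levels were -1.10 and -0.43 in PDC, against -4.47 and -4.69 in CDP, 14.1-fold higher in PDC with a difference of 3.81 ± 0.27 (adjusted p = 5.49e-06). The PDC mean of miR-128 was the highest of the 8 populations, and the next was that of the MP progenitors at -3.20.

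miR-592 lies within Grm8, a glutamate receptor gene, on chromosome 6 (27936711-27936733). It had -3.05 and -2.83 in PDC and was detected on none of the other 14 arrays. It passed the filter on detection through PDC alone, so its levels are given as a description. Against CDP, PDC were at least 4.74-fold higher, over Gr1+ monocytes at least 4.42-fold and over the spleen DC at least 4.68-fold, and the fitted difference from CDP was 2.60 ± 0.17. miR-592 and miR-128 thus had their highest levels of the study in PDC.

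Of the miRNAs known from lymphocytes, 4 of the 7 tested were higher in PDC, none was lower and 3 were not called, with a median difference of 1.43. Over all tested miRNAs 25.7 percent were called higher and the median was 0.00. miR-150, which rises as lymphocytes mature and represses Myb, had -1.11 and -0.55 in PDC, against -4.90 and -4.87 in CDP. It was 16.6-fold higher in PDC, a difference of 4.05 ± 0.56 (adjusted p = 0.000313). miR-342-3p, encoded within Evl on chromosome 12, had -0.52 and -0.58 in PDC, against -2.24 and -2.07 in CDP, a difference of 1.61 ± 0.29 (adjusted p = 0.00145). Its opposite arm miR-342-5p was at the floor on all 4 arrays. In bulk RNA, levels in PDC themselves and lymphocytes among the sorted cells cannot be told apart.

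The miR-181 family, known for its part in lymphocyte development and in tuning T cell receptor signals, split into pairs. miR-181a had 0.61 and 0.83 in PDC, against -1.07 and -1.31 in CDP, a difference of 1.91 ± 0.13 (adjusted p = 5.49e-06). miR-181c, at -2.15 and -1.81 in PDC and -3.32 and -3.49 in CDP, differed by 1.43 ± 0.19 (adjusted p = 0.000243). PDC had the highest mean of all 8 populations for both miR-181a and miR-181c.

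miR-181b and miR-181d did not follow. miR-181b had -1.36 and -0.95 in PDC, against -0.92 and -1.08 in CDP, a difference of -0.15 ± 0.15 (adjusted p = 0.543). For miR-181d the difference was -0.09 ± 0.29 (adjusted p = 0.944), and the groups overlapped for both. miR-181a and miR-181b are neighbours on chromosome 1 and again on chromosome 2, and miR-181c and miR-181d are neighbours on chromosome 8. Under the 3 other scalings 4 members of the lymphocyte list were called higher, and miR-181b was called lower in PDC, at -0.68 over all miRNAs, -0.49 by the median and -0.43 by quantiles.

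**Figure D4:**
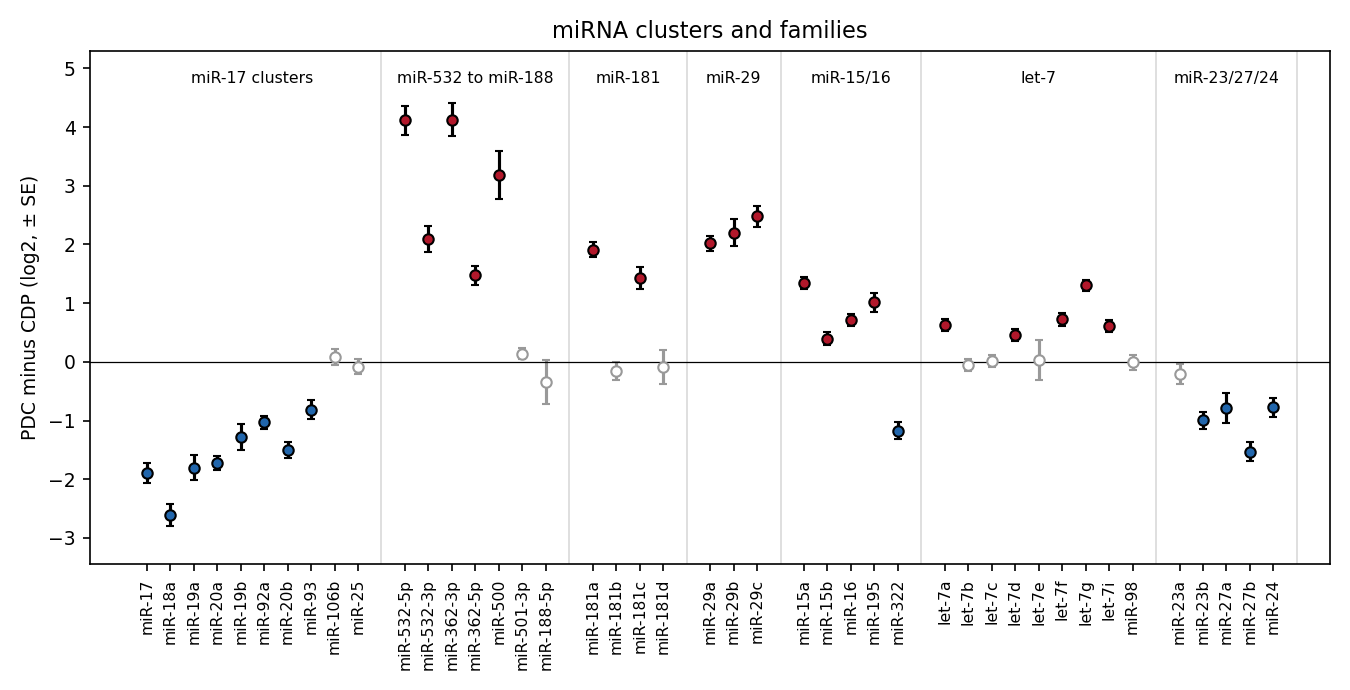
PDC minus CDP (log2) with its SE for tested miRNAs of 7 clusters and families, filled red where called higher in PDC, filled blue where called lower and open where not called. The miR-29 members all lie above 0, from 2.02 to 2.48. miR-181a and miR-181c lie above 0 while miR-181b and miR-181d lie near it, and miR-322 lies at -1.17 below the other miR-15 relatives.

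miRNAs that respond to activation of immune cells gave 1 call of a higher level among 4 tested, near the 25.7 percent over all tested miRNAs. Their median difference was 0.39, and it was -0.05 when scaled over all miRNAs. The call was miR-146a, an NF-κB target that dampens Toll-like receptor signals through Traf6 and Irak1. Its levels were -0.55 and -1.59 in PDC, against -4.83 and -4.86 in CDP, 13.7-fold higher in PDC with a difference of 3.77 ± 0.31 (adjusted p = 1.36e-05). The PDC replicates lay 1.05 apart, with no overlap with CDP. miR-146b, from chromosome 19 and with the same seed, was at or near the floor in both, at -5.30 and -5.15 in PDC and -5.30 and -5.32 in CDP, and was not called (0.09 ± 0.17, adjusted p = 0.82). miR-155, induced in activated lymphocytes and myeloid cells, had -3.48 and -3.39 in PDC, against -4.00 and -4.25 in CDP, and its difference of 0.70 ± 0.36 was not called (adjusted p = 0.198). miR-212 was not called either.

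miR-22, cut from a noncoding host transcript on chromosome 11 (75463772-75463793), had -2.08 and -2.34 in PDC. In CDP it stood at -5.30 and -5.65 and was detected on 1 of 2 arrays, a difference of 3.26 ± 0.22 (adjusted p = 5.49e-06) in which the first CDP value is the floor. miR-151-5p had -3.22 and -2.98 in PDC and was detected on no CDP array, so PDC were at least 4.24-fold higher. Its fitted difference was 2.44 ± 0.23 (adjusted p = 3.39e-05). It stood at the floor in CDP, the other marrow progenitors and Gr1+ monocytes, so this p does not measure the spread on those arrays. Both arms of miR-142, the miRNA of blood cells, were called higher, miR-142-5p by 1.26 ± 0.18 (adjusted p = 0.000326) and miR-142-3p by 0.68 ± 0.19 (adjusted p = 0.0177). miR-142-3p had 1.51 and 0.76 in PDC, against 0.90 and 0.01 in CDP, so its groups overlapped across replicates and were ordered only within each. Its call was lost without CDP replicate 1, CDP replicate 2 or PDC replicate 2, at adjusted p of 0.0796, 0.0788 and 0.106, and neither arm was called when scaled over all miRNAs.

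All 3 members of the miR-29 family, which represses collagens and DNA methyltransferases, were higher in PDC, with a median difference of 2.20. miR-29a had 1.40 and 1.69 in PDC, against -0.38 and -0.56 in CDP, a difference of 2.02 ± 0.12 (adjusted p = 5.49e-06). miR-29b had 0.18 and -0.16 in PDC, against -1.73 and -2.66 in CDP, and differed by 2.20 ± 0.23 (adjusted p = 5.71e-05). miR-29c had -2.30 and -2.07 in PDC, against -4.53 and -4.81 in CDP, and differed by 2.48 ± 0.18 (adjusted p = 5.49e-06). The family has 2 clusters, miR-29a with miR-29b on chromosome 6 and miR-29b with miR-29c on chromosome 1. Mature miR-29b is the same from both, so the arrays cannot separate the sources. On chromosome 6 the opposite arm miR-29b* was not called (-0.00). For chromosome 1 alone there is miR-29c, which differs from miR-29a by 1 base and was not called after normexp background correction. Under the 3 other scalings all 3 were still called, with medians of 1.68 to 1.92.

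The main loss in PDC was in the miR-17 clusters, whose miRNAs are switched on by Myc, repress Bim and favour proliferation. Of 13 tested members 9 were lower in PDC, against 12 percent over all tested miRNAs, none was higher and 4 were not called. The median was -1.03, and under the other scalings 10 were lower. miR-18a had the largest fall, with -4.41 and -3.84 in PDC, against -1.52 and -1.51 in CDP, 6.13-fold higher in CDP (-2.61 ± 0.19, adjusted p = 5.49e-06). The cluster on chromosome 14 (115043684-115044496, plus strand) fell as a block, with 7 of its 8 tested mature miRNAs called lower and the last, miR-18a*, at the floor on all 4 arrays. miR-19b and miR-92a are also made from the X chromosome, and arrays cannot separate the sources.

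miR-20a, with 2 bases changed from miR-17 and the same seed, had -0.57 and -0.26 in PDC, against 1.33 and 1.29 in CDP, a difference of -1.72 ± 0.12 (adjusted p = 5.49e-06). miR-17 itself was at the floor in PDC replicate 1 and at -4.90 in replicate 2, against -3.24 and -3.17 in CDP, a difference of -1.90 ± 0.17 (adjusted p = 2.25e-05). miR-19a had -3.23 and -3.30 in PDC, against -1.32 and -1.61 in CDP, and miR-19b had -0.38 and -0.58 in PDC, against 0.95 and 0.64 in CDP. These miR-19 members, which share a seed, differed by -1.80 ± 0.21 (adjusted p = 0.000118) and -1.28 ± 0.22 (adjusted p = 0.00106). miR-92a, at 0.99 and 1.26 in PDC and 2.02 and 2.29 in CDP, fell by the least among the cluster's leading arms, -1.03 ± 0.11 (adjusted p = 8.05e-05).

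The related cluster on the X chromosome gave miR-20b, with -1.56 and -1.13 in PDC, against 0.13 and 0.19 in CDP, a difference of -1.51 ± 0.13 (adjusted p = 2.25e-05). In the cluster within Mcm7 on chromosome 5, 1 of 4 tested mature miRNAs was called. That was miR-93, which had -0.94 and -0.43 in PDC, against 0.26 and -0.00 in CDP, a difference of -0.81 ± 0.16 (adjusted p = 0.00282). miR-106b, with -0.16 and -0.10 in PDC and 0.01 and -0.42 in CDP, differed by 0.08 ± 0.13 (adjusted p = 0.781), and its sign turned to -0.44, -0.26 and -0.17 under the scalings over all miRNAs, by the median and by quantiles. miR-25 was not called, at -0.08 ± 0.13 (adjusted p = 0.772), and was called lower under those scalings, at -0.60, -0.42 and -0.48. miR-106b*, detected on both CDP arrays and no PDC array, stood at the floor on all 4 and was not called, but with the brightest probe it was called lower at -0.66 (adjusted p = 0.0194).

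Of 5 tested miRNAs known from myeloid cells, 3 were lower in PDC, against 12 percent over all tested miRNAs. None was higher and the median was -0.77. miR-223, which is abundant in granulocytes and restrains them, had 0.52 and 0.09 in PDC, against 2.64 and 2.78 in CDP. It was 5.29-fold higher in CDP, a difference of -2.40 ± 0.20 (adjusted p = 1.36e-05), and PDC had the lowest mean of the 8 populations. miR-24 and miR-27a, neighbours on chromosome 8 in a cluster that PU.1 is known to activate, differed by -0.77 ± 0.16 (adjusted p = 0.0039) and -0.79 ± 0.26 (adjusted p = 0.0362). The call of miR-27a did not survive the removal of CDP replicate 1, CDP replicate 2, PDC replicate 1 or PDC replicate 2 (adjusted p of 0.244, 0.0529, 0.186 and 0.0822), which each left 2 calls of 5. miR-23a of that cluster was not called (-0.21 ± 0.17, adjusted p = 0.434). It passed as lower under the other scalings, at -0.73, -0.55 and -0.39 when scaled over all miRNAs, by the median and by quantiles. miR-21 was not called, and its PDC values of 1.32 and -0.01 lay on both sides of the CDP values of 0.52 and 0.51. In the paired cluster on chromosome 13, within Aopep, miR-27b differed by -1.53 ± 0.17 (adjusted p = 8.05e-05) and miR-23b by -0.99 ± 0.15 (adjusted p = 0.000486). Mature miR-24 is the same from both clusters.

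Stem and early progenitor miRNAs gave 3 lower members among 7 tested, none higher, and a median of -0.37 that was -0.90, -0.71 and -0.70 when scaled over all miRNAs, by the median and by quantiles. Over all tested miRNAs 12 percent were called lower. miR-99a was at the floor in PDC replicate 1 and at -5.09 in replicate 2, against -4.13 and -3.86 in CDP, a difference of -1.20 ± 0.21 (adjusted p = 0.0012). miR-125b-5p had -4.43 and -4.03 in PDC, against -3.18 and -2.99 in CDP (-1.15 ± 0.28, adjusted p = 0.00912). Its call was lost without CDP replicate 1, PDC replicate 1 or PDC replicate 2, at adjusted p of 0.0702, 0.0523 and 0.0546. miR-126-3p, a miRNA of blood stem cells and endothelium, had -3.90 and -3.39 in PDC, against -2.75 and -3.05 in CDP (-0.74 ± 0.23, adjusted p = 0.0278). The call of miR-126-3p was lost without CDP replicate 1, PDC replicate 1 or CDP replicate 2, at adjusted p of 0.131, 0.147 and 0.0905 and differences of -0.71, -0.32 and -0.78. Without CDP replicate 1 or PDC replicate 1 the list had 1 call, and without CDP replicate 2 or PDC replicate 2 it had 2.

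miR-221 and miR-222 are neighbours on the X chromosome that share a seed and repress Kit and the cell cycle inhibitor p27. miR-221 had -1.85 and -1.60 in PDC, against -0.27 and -0.52 in CDP, a difference of -1.33 ± 0.16 (adjusted p = 0.000127). miR-222 had -3.15 and -2.65 in PDC, against -2.46 and -2.34 in CDP (-0.50 ± 0.14, adjusted p = 0.0177), and its call was lost without CDP replicate 1 (adjusted p = 0.143) or PDC replicate 1 (adjusted p = 0.117), leaving miR-221 alone.

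Among the let-7 miRNAs, which build up as cells differentiate and repress Lin28 and Hmga2, 5 of 9 were higher in PDC and none lower. Their median was 0.46, and the share called higher over all tested miRNAs was 25.7 percent. let-7g had 1.62 and 1.75 in PDC, against 0.45 and 0.31 in CDP (1.30 ± 0.09, adjusted p = 5.49e-06). let-7a, let-7f and let-7i differed by 0.63 ± 0.10, 0.72 ± 0.11 and 0.61 ± 0.11 (adjusted p of 0.000842, 0.00047 and 0.00139). Scaled over all miRNAs 1 member, let-7g, was higher and 1 was lower, scaled by the median 1 was higher and none lower, and by quantiles 3 were higher and 1 lower.

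The miR-15 and miR-16 family, which represses Bcl2 and cyclins, held the single seed of the 18 with at least 2 tested members that was called in both directions. miR-15a had 0.96 and 0.85 in PDC, against -0.23 and -0.65 in CDP (1.34 ± 0.11, adjusted p = 1.36e-05). miR-16 differed by 0.71 ± 0.11 (adjusted p = 0.00047), and miR-195 was detected on both PDC arrays and no CDP array (at least 1.58-fold, adjusted p = 0.000842). miR-322, the mouse counterpart of human miR-424, went the other way, with -4.38 and -4.27 in PDC, against -3.01 and -3.31 in CDP (-1.17 ± 0.14, adjusted p = 0.000128). Of 6 tested members 4 were higher and 1 lower, beside 25.7 percent higher and 12 percent lower over all tested miRNAs. When scaled over all miRNAs or by the median, 2 members were higher. Of the other seeds, 4 had all tested members higher and 3 had all lower. Of 30 genomic clusters, with miRNAs at most 10000 bases apart on 1 strand, 5 had all members higher, 3 all lower and 9 no call. None had calls in both directions, while a mature miRNA made from several loci counted in each.

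In the miR-30 family 3 of 5 were higher with a median of 0.57, beside 25.7 percent higher over all tested miRNAs. None was higher when scaled over all miRNAs, and miR-30d turned from 0.28 to -0.24 there. miR-30b, miR-30c and miR-30e differed by 0.90 ± 0.12, 0.76 ± 0.11 and 0.57 ± 0.12 (adjusted p of 0.000269, 0.000374 and 0.00478), and miR-30e was lost without CDP replicate 2 (adjusted p = 0.0544). miR-148a and miR-148b, whose targets include Dnmt1, were higher by 1.03 ± 0.14 and 1.00 ± 0.14 (adjusted p = 0.00029 for both). miR-148a had -1.80 and -1.68 in PDC, against -2.62 and -2.91 in CDP. None of the 4 tested members of the miR-130 and miR-301 family was called, with a median of -0.31. miR-130b was called lower when scaled over all miRNAs, at -0.65 (adjusted p = 0.0393), and by quantiles, at -0.46 (adjusted p = 0.0146).

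To see which differences set PDC apart from other mature cells, the same fit compared PDC with Gr1+ monocytes and with the mean of the 3 spleen DC populations. These comparisons share the PDC arrays with the first. Against the spleen DC, tissue, pool size and cell type cannot be told apart. Against Gr1+ monocytes 71 of 175 were called (40.6 percent), 40 higher (22.9 percent) and 31 lower (17.7 percent) in PDC, and against the spleen DC 75 (42.9 percent), 32 higher (18.3 percent) and 43 lower (24.6 percent). After normexp background correction the comparison with monocytes split into 10 higher and 91 lower. By quantiles the split turned for both, to 33 higher and 40 lower against monocytes and to 41 higher and 32 lower against spleen DC. By the median it was 28 higher and 42 lower against monocytes, and over all miRNAs it was 32 higher and 22 lower against spleen DC.

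The 5 miRNAs of the Clcn5 group that were called against CDP, miR-128 and the 4 miR-181 members were higher in PDC than in both. For miR-362-5p, which passed the filter through PDC alone, this is a description. Of the other Clcn5 members, miR-188-5p differed by -0.19 from monocytes (adjusted p = 0.754) and by -0.69 from spleen DC (adjusted p = 0.102), and miR-501-3p by 0.14 from both (adjusted p of 0.258 and 0.148), with no call. miR-362-3p was higher by 3.31 ± 0.28 against monocytes (adjusted p = 2.58e-05) and by 3.33 ± 0.23 against spleen DC (adjusted p = 4.55e-06). miR-128 was higher by 4.19 ± 0.27 (adjusted p = 6.96e-06) and 3.40 ± 0.22 (adjusted p = 3.5e-06), and miR-500 by 1.58 ± 0.41 (adjusted p = 0.0129) and 1.78 ± 0.33 (adjusted p = 0.00253). miR-181b, which did not pass the test against CDP, was higher in PDC than in monocytes by 1.79 ± 0.15 (adjusted p = 2.4e-05) and than in spleen DC by 2.68 ± 0.12 (adjusted p = 6.54e-07), and miR-181d by 1.72 ± 0.29 (adjusted p = 0.0013) and 2.52 ± 0.24 (adjusted p = 3.14e-05). miR-126-3p, lower in PDC than in CDP, was detected on none of the monocyte and spleen DC arrays, with PDC higher by at least 2.71-fold over monocytes (adjusted p = 0.000184) and at least 2.87-fold over spleen DC (adjusted p = 4.15e-05). The monocyte and spleen DC values stood at or near the floor, so these p-values do not measure the spread there.

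Other rises were shared with mature cells or larger there. miR-150 exceeded monocytes by 3.97 ± 0.56 (adjusted p = 0.000481) but was not called against spleen DC, at 0.44 ± 0.46 (adjusted p = 0.481). For miR-146a PDC were above monocytes by 3.47 ± 0.31 (adjusted p = 3.4e-05) and below spleen DC, at -1.78 ± 0.25 (adjusted p = 0.000465). miR-22 was lower in PDC than in both, with -1.02 ± 0.22 against monocytes (adjusted p = 0.00493) and -1.62 ± 0.18 against spleen DC (adjusted p = 8.79e-05). miR-29a was higher in PDC than in monocytes by 1.49 ± 0.12 (adjusted p = 2.4e-05) and was not called against spleen DC (-0.13 ± 0.10, adjusted p = 0.354). miR-155 was detected on no monocyte array, with PDC at least 3.14-fold higher (adjusted p = 0.00153), and was lower in PDC than in spleen DC, at -1.94 ± 0.30 (adjusted p = 0.000726). miR-223 was lower in PDC than in monocytes, at -4.12 ± 0.20 (adjusted p = 1.04e-06), and than in spleen DC, at -2.40 ± 0.16 (adjusted p = 4.3e-06). miR-18a was lower in PDC than in spleen DC, at -0.63 ± 0.15 (adjusted p = 0.00884), while miR-17, miR-19a, miR-20a and miR-92a were not called against them, with differences between -0.28 and 0.20. Against monocytes miR-18a was lower by -1.87 ± 0.19 (adjusted p = 5.69e-05), miR-17 by -1.13 (adjusted p = 0.000626), miR-20a by -0.79 (adjusted p = 0.000818) and miR-19a by -0.66 (adjusted p = 0.0319), and miR-92a was not called (-0.03, adjusted p = 0.935).

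**Figure D5:**
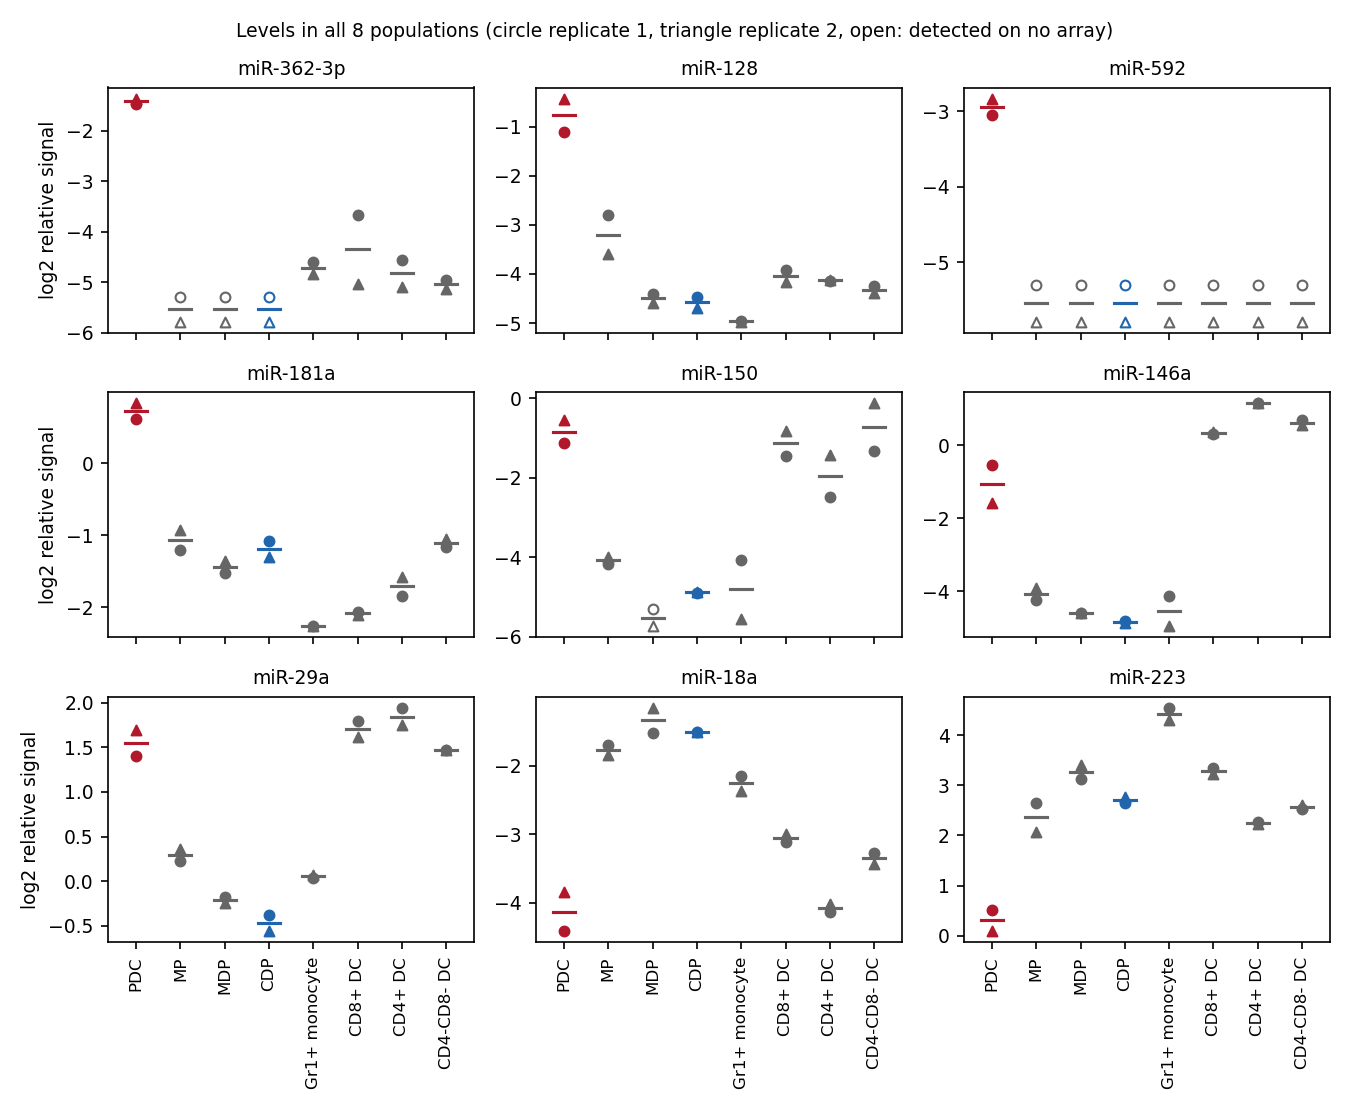
Log2 signal over the array's own 75th percentile in all 8 populations for 9 miRNAs, circles for replicate 1, triangles for replicate 2, lines for means, PDC in red, CDP in blue, and open symbols where no array of the population detected the miRNA. miR-592 is detected in PDC alone, miR-128, miR-362-3p and miR-181a have their highest means in PDC and miR-223 its lowest, while miR-146a is higher in the 3 spleen DC populations than in PDC. MP (CD117+ CD115-) and MDP (CD117+ CD115+) are other CD135+ marrow progenitors, from pools of 15 mice.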

How the data were processed

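RNA of 8 sorted populations, 2 biological replicates each from separate pools of mice per the labels, was hybridised to 1-colour Cy3 Agilent miRNA arrays. Feature Extraction of Agilent had read the spots and subtracted background (version 10.7.3.1 per the file headers, 9.1 per the submitters' processing notes), and its deposited processed signal, an intensity on a linear scale, was the starting value. Spots marked as non-uniform or outliers were left out, spots and then probes of a miRNA were averaged, and a miRNA counted as detected where a share of at least 0.5 of a probe's spots was well above background. Signals were scaled by their array's 75th percentile over 88 miRNAs with detection on every array, a factor between 333 and 876. Values were raised to a floor (the 5th percentile of an array's detected values, as the median within each design) and then logged. Control, viral and single-design probes were not compared. A bound ("at least") sets the undetected side on each array to the higher of its own value and the lowest detected signal. A p-value beside a bound is that of the fitted difference from floored values, not of the bound.

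limma 3.58.1 in R 4.3.3 fitted all 16 arrays with population means and the replicate number as a block, with 8.52 degrees of freedom after moderation. Numbers pair the arrays because each number is 1 array design, slide and scan. Deviations of same-numbered arrays correlated in 28 of 28 pairs of populations (r from 0.297 to 0.917, PDC with CDP 0.581). As the floors differ by design, miRNAs at the floor in both populations deviate alike, so part of r is built in and r is no test of the pairing. p-values were adjusted by Benjamini and Hochberg over the 175 tested miRNAs, with adjusted p under 0.05 called. Named are the 10 largest rises and falls, all tested members of the main lists, up to 4 members with the smallest p of the other lists, and miR-223, miR-155, miR-21, miR-22, miR-126-3p and miR-451, 74 in all. Comparison, members and lists were chosen with earlier results of these data known, so a list is described by counts and its median, not tested. Alternatives were 3 scalings, normexp background (offset 50), other probe summaries and filters, no block, the 4 arrays alone, and leaving out each array.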

Additional observations from a re-analysis of the deposited data

Results flagged for a closer look

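Some miRNAs moved in opposite directions from CDP in PDC and in another mature population, so that the difference between the mature populations was larger than either. They were picked among the named miRNAs because both changes from CDP and the difference between the mature populations were called, so small p-values follow from the choice. The tests are those of the difference itself in limma. These comparisons share the CDP arrays, and each value is given as PDC minus the other population. Against Gr1+ monocytes, miR-181a was higher in PDC by 2.98 ± 0.13 (adjusted p = 8.85e-07) and miR-181c by 2.78 ± 0.19 (adjusted p = 6.96e-06), both above CDP in PDC and below CDP in monocytes. miR-223 ran the other way with -4.12 ± 0.20 (adjusted p = 1.04e-06), as did miR-27a with -1.76 ± 0.26 (adjusted p = 0.000559) and miR-322 with -1.76 ± 0.14 (adjusted p = 2.05e-05), all below CDP in PDC and above CDP in monocytes. Against the spleen DC, miR-148a differed by 2.41 ± 0.11 (adjusted p = 6.54e-07), miR-181a by 2.35 ± 0.10 (adjusted p = 6.54e-07) and miR-181c by 2.24 ± 0.15 (adjusted p = 4.5e-06). Each was above CDP in PDC and below CDP in the mean of the 3 spleen DC populations. For miR-181a the CD4-CD8- DC, with a mean of -1.105, were not below CDP, with a mean of -1.19. The call of miR-27a in PDC against CDP was lost without any single PDC or CDP array. After normexp background correction miR-27a, miR-322, miR-181c and miR-148a were not called in PDC against CDP.

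On array design 2, some miRNAs absent from design 1 gave a signal in PDC more than 1 above CDP on the log2 scale, with 1 array each and hence no test. miR-1839-5p was higher by 2.48, with -3.30 in PDC and the floor of -5.78 in CDP. miR-2140 was higher by 1.64, with 2.91 in PDC and 1.27 in CDP. The others were miR-3473 (1.59), miR-1927 (1.32), miR-3099 (1.08), miR-1306 (1.07) and miR-3472 (1.01), of which miR-3473, miR-1306 and miR-3472 stood at the floor in CDP as well, so that these sizes and that of miR-1839-5p rest on the floor. That makes 7 such miRNAs among 33 that were on 1 design alone and detected in PDC or CDP. In the other direction, miR-1949 was lower by more than 1, with -0.69 in PDC and 0.73 in CDP (-1.42). With 2 arrays per population, single arrays could not be checked as outliers.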

How the results depend on the processing

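Against 66 calls, PDC minus CDP gave 31 (19 higher and 12 lower) after normexp background correction and 0 with the 4 PDC and CDP arrays alone, a fit with few residual degrees of freedom. Between 49 and 69 were called under the other settings, and 58 to 68 without any 1 of the 4 arrays. Without the replicate block, the fit called 57, 39 higher and 18 lower. PDC against Gr1+ monocytes, with 71 calls, gave 47 when only miRNAs detected on all arrays (88) were tested and 56 to 74 without single arrays. PDC against spleen DC, with 75 calls, gave 16 after normexp and 63 to 74 without single arrays. Of 51 named calls, 25 kept call and direction under every alternative that tested them except the 4-array fit, and 37 did so when normexp was also set aside. Of the 66 calls, let-7d, miR-140, miR-15b and miR-361 turned sign when scaled over all miRNAs, and miR-140* and miR-30e (to just under 0) by quantiles. Among uncalled miRNAs, signs turned when scaled over all miRNAs, by the median and by quantiles for miR-106b (-0.44, -0.26 and -0.17), miR-146b (-0.27, -0.21 and -0.026, and -0.025 after normexp), miR-30d (-0.24, -0.056 and -0.18) and miR-21 (-0.38, -0.20 and -0.37). miR-188-5p turned to 0.14 with the brightest probe. Without single arrays, ranges across 0 were -0.082 to 0.24 for miR-106b, -0.28 to 0.12 for miR-25, -0.32 to 0.010 for miR-181b, -0.22 to 0.035 for miR-181d, -0.26 to 0.0072 for miR-130b and -0.53 to 0.81 for miR-21. The causes were not tested. The total gene signal, an added alternative chosen after seeing the data, called 69. Values near the floor limit the size of differences, since signal under it has no order.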

Other observations

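Several miRNAs called higher in PDC lie within members of a gene family and were named after their values were seen. miR-26a, within Ctdspl on chromosome 9 and Ctdsp2 on chromosome 10, had 0.54 and 0.88 in PDC, against -0.46 and -0.51 in CDP (1.19 ± 0.16, adjusted p = 0.000252). miR-26b, within Ctdsp1 on chromosome 1, had 0.09 and 0.04 in PDC, against -1.20 and -1.78 in CDP (1.55 ± 0.15, adjusted p = 4.31e-05). The Ctdsp genes encode small phosphatases of the RNA polymerase II tail, and no value for them is on these arrays.

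miR-107, within the pantothenate kinase gene Pank1, had 0.26 and 0.52 in PDC, against -0.71 and -1.07 in CDP (1.28 ± 0.13, adjusted p = 5.02e-05). miR-103, within Pank2 and Pank3 and with the same seed, differed by less, 0.56 ± 0.10 (adjusted p = 0.00149). miR-350, miR-374 and miR-185 were also higher in PDC, by 0.99 ± 0.11, 0.93 ± 0.13 and 1.30 ± 0.20 (adjusted p of 7.55e-05, 0.000311 and 0.000564). These too were picked after their values were seen, from the 45 called higher (25.7 percent of those tested). Scaling over all miRNAs shifted the scale between PDC and CDP by -0.52, beside the 0.56 of miR-103.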
